A study of Rattus norvegicus with 24 samples.

Results

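Fatty acid uptake and oxidation genes were defined here by name as 39 genes covering the route of a long-chain fatty acid from the capillary to mitochondrial oxidation. All 39 were found among the 13458 gene symbols of the table, each on 1 row, and all 39 passed the filter on low values and were tested. The tissue was the tibialis anterior (TA), a fast ankle dorsiflexor, from both limbs of 12 aged male Fischer 344 rats (23 ± 1 months), which gave 24 RNA-seq samples. In 9 animals tetrodotoxin (TTX), a sodium channel blocker, was delivered to the left common peroneal nerve, so that the dorsiflexors of that limb could not contract while the tibial nerve kept working. The left limbs formed the atrophy group (n = 3, TTX for 6 to 7 d), the recovery group (n = 3, the same, then 9 d without TTX) and the repeated atrophy group (n = 3, the same again, then a second block of 5 to 6 d). The 9 right limbs of these animals, which were not operated on, served as control, and they belong to animals that had been treated with TTX in the other limb. In the 3 sham animals, 1 for each time point, the left limb had the surgery without TTX (sham left, n = 3) and the right limb did not (sham right, n = 3).

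Resting and contracting muscle takes up fatty acids that lipoprotein lipase frees from circulating triglycerides, traps them as acyl-CoA, carries them into mitochondria as acyl-carnitine and shortens them by 2 carbons in each turn of beta-oxidation. Each turn uses an acyl-CoA dehydrogenase, an enoyl-CoA hydratase, a 3-hydroxyacyl-CoA dehydrogenase and a thiolase, and its electrons leave through the electron transfer flavoprotein. The pathway is largely under the control of PPAR, ERR and PGC-1 family regulators and of AMP-activated protein kinase, and fast muscle such as the TA uses it less than slow muscle does.

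Values are CPM, that is, reads per gene scaled to one total in every limb. Comparisons used limma on log2(CPM + 1), so a log2 FC is a difference between group means on that scale and understates the change of low genes. A gene was called a differentially expressed gene (DEG) when its FC was 1.2 or more and its p, adjusted by Benjamini-Hochberg over all rows tested, was 0.05 or less. At the depth inferred for the 24 limbs 1 read is worth 0.0324 to 0.053 CPM, far below the level of every member. The summed muscle fibre markers, among them Acta1 and Ckm, ranged from 42273 to 101607 CPM over the limbs of all groups, and the 7 adipocyte markers from 5.06 to 40.6 CPM. In whole muscle, fewer cells of a type and less RNA per cell cannot be told apart.

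Per kilobase of transcript, the control limbs held most of Acadm (399 CPM per kb), Acadl (383), the fatty acid-binding protein Fabp3 (383) and Hadhb (378), and least of the liver-type carnitine palmitoyltransferase Cpt1a (2.32), Slc27a4 (2.82), Acsl5 (2.89) and Slc27a1 (3.67). The 39 genes together made up 6028 to 9086 CPM in the control limbs, 7851 to 9822 CPM after atrophy, 6698 to 10565 CPM after recovery and 7520 to 9865 CPM after repeated atrophy. The ranges of these sums overlapped between all 4 groups.

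After the first TTX block 7 of the 39 genes were DEGs vs. control. Slc27a4, Acsl3, Acsl4, Cpt1a and Ucp3 were higher (12.8% of the members, 20.3% of the 14031 rows tested were higher) and Acsl6 and Hadh were lower (5.13% of the members, 2.33% of all rows). After recovery only Eci2 was a DEG, and it was higher (2.56% of the members, against 4.4% of all rows higher and 3.33% lower). After repeated atrophy 12 were DEGs: Fabp3, Acsl3, Acsl4, Cpt1a and Ucp3 were higher (12.8% of the members, 28.1% of all rows) and Acsl6, Cpt2, Acadm, Echs1, Hadh, Acaa2 and Ehhadh were lower (17.9% of the members, 6.24% of all rows). On the deposited scale the share of members that was higher lay below the share over all rows in each of the 3 comparisons. The share that was lower lay above it after atrophy, with 2 genes, and after repeated atrophy. The first of these depended on scale. Once rescaled as described below, 5.13% of the members and 4.73% of all rows were higher after atrophy. After recovery these shares were 5.13% and 6.02%, and after repeated atrophy 12.8% and 13.1%. These 3 comparisons share their 9 control limbs, so their lists are not independent of each other.

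**Figure D1:**
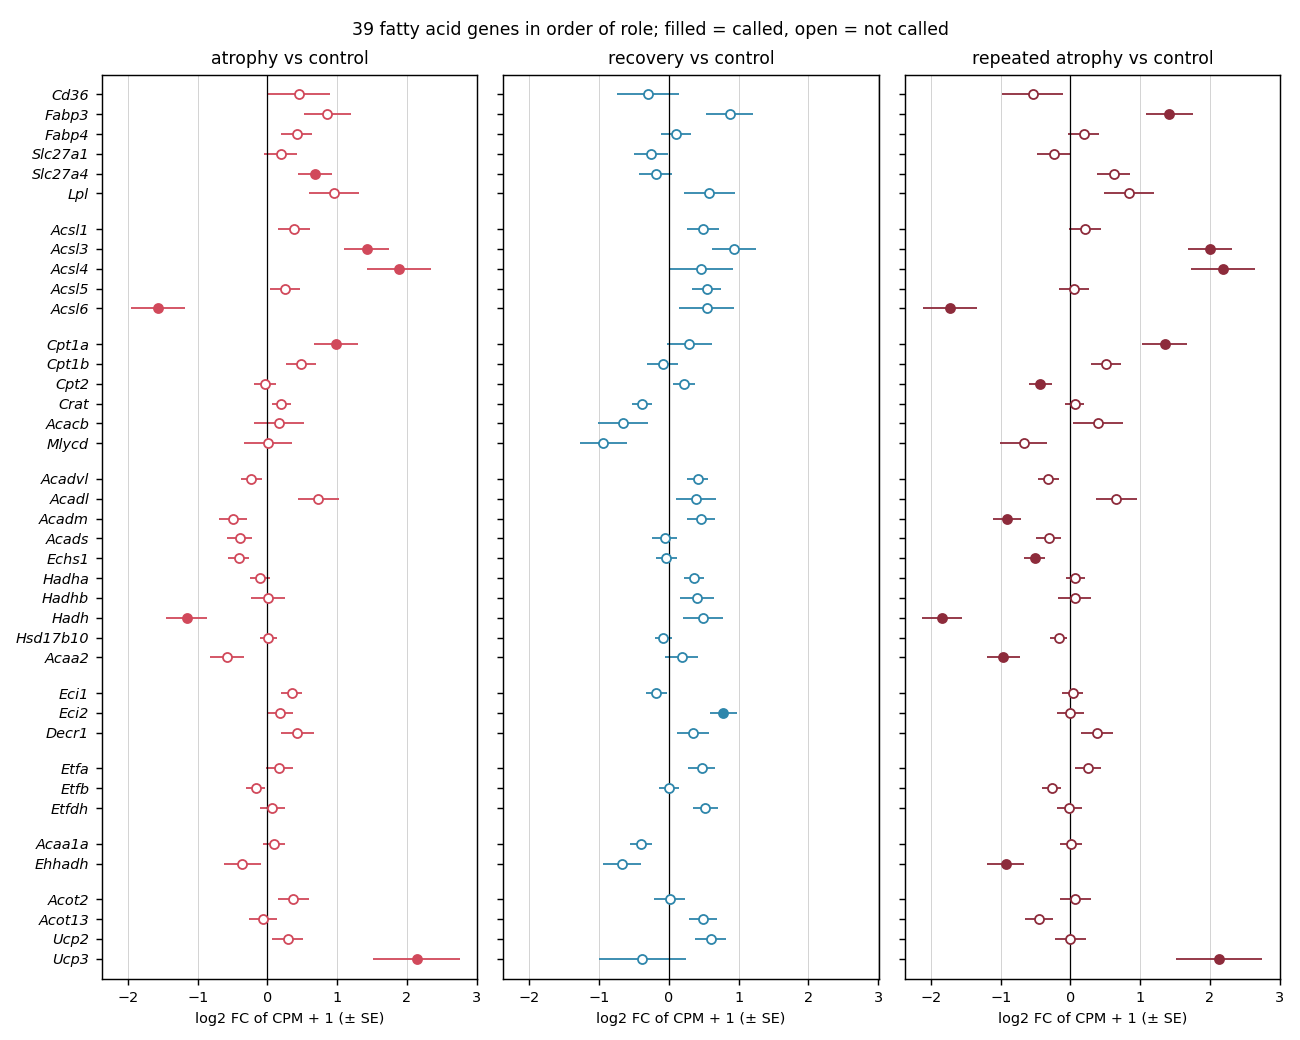
Log2 FC on the log2(CPM + 1) scale (± SE, limma) of the 39 genes vs. the 9 control limbs after atrophy, recovery and repeated atrophy (n = 3 limbs each), ordered from uptake genes at the top to thioesterases and uncoupling proteins at the bottom; filled circles are DEGs. Acsl3 (2.00), Acsl4 (2.19) and Ucp3 (2.13) lie farthest to the right and Hadh (-1.84) and Acsl6 (-1.73) farthest to the left after repeated atrophy.

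The left and right limb of an animal are paired by the labels, and a comparison within animals gave other calls. With the animal as a block in the limma fit, 0 of the 39 genes were DEGs after atrophy and 0 after recovery, where 0.0% and 0.0641% of all rows were called. At an unadjusted p under 0.05 there were 7 of the 39 genes and 2678 of the 14031 rows after atrophy, and 12 of the 39 genes and 2521 of the rows after recovery. After repeated atrophy the block left 14 members called, 7 higher and 7 lower, where 21.5% of all rows were called higher and 5.66% lower: Cpt2 was lost, and Cpt1b, Acadl and Mlycd were gained. All 7 calls after atrophy were also lost without atrophy replicate 1 and without atrophy replicate 3, and 12 members were called without replicate 2. A call for atrophy vs. control below is therefore one against the pool of 9 right limbs. The block log2 FC of these 7 genes kept the direction, at 0.51 for Slc27a4, 0.85 for Acsl3, 0.97 for Acsl4, 0.47 for Cpt1a, 1.06 for Ucp3, -1.07 for Acsl6 and -0.86 for Hadh. Within the atrophy animals the left limb was lower in 3 of 3 for Acsl6 (by 1.87, 0.32 and 1.03) and for Hadh (by 1.65, 0.24 and 0.69 on the log2 scale), and higher in 3 of 3 for Slc27a4, Acsl4 and Ucp3. For Acsl3 (1.81, -0.37 and 1.11) and Cpt1a (0.95, -0.08 and 0.55) it was higher in 2 of 3, with atrophy animal 2 the other way.

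A second dependence is on scale. Over all rows the median log2 FC stood at 0.22 after atrophy and 0.20 after repeated atrophy, and 0.00 and -0.01 once each limb was rescaled by a trimmed mean (TMM), while that of the 39 genes went from 0.18 to -0.18 and from 0.03 to -0.34. In the rescaled values 5 members were lower and 2 higher after atrophy (4.95% and 4.73% of all rows), 2, Acsl3 and Eci2, were higher and 0 lower after recovery (6.02% and 6.04%), and 13 were lower and 5 higher after repeated atrophy (12.1% and 13.1%). The genes gained on the lower side after repeated atrophy were Mlycd, Acadvl, Acads, Hsd17b10, Etfb and Acot13, and the 5 on the higher side were again Fabp3, Acsl3, Acsl4, Cpt1a and Ucp3. The 10 most abundant genes of a limb took 24.3% to 32.7% of its CPM in control limbs and 15.6% to 19.2% after repeated atrophy. After atrophy they took 13%, 25.6% and 15.6%, so that atrophy replicate 2 lay inside the control range.

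Of the 6 uptake genes, 1 was called higher after atrophy, Slc27a4 (20.3% of all rows were higher), and 1 after repeated atrophy, Fabp3 (28.1% of all rows), so these counts did not stand out from all rows. Fabp3, the heart and muscle form of the cytosolic fatty acid carrier (rn7 chromosome 5, 142651977 to 142658706), ranged in the 9 control limbs from 170 to 319 CPM with a median of 253 CPM. It was at 484, 1110 and 523 CPM after repeated atrophy, so that every repeated atrophy limb lay above every control limb. The log2 FC was 1.42 ± 0.34 (2.67-fold, limma, adjusted p = 0.0041), and without repeated atrophy replicate 2, the limb at 1110 CPM, the adjusted p was 0.056 (0.0022 to 0.056 over 23 alternatives). After atrophy (505, 237 and 743 CPM) and recovery (695, 578 and 226 CPM) 1 limb of each 3 stayed inside the control range, and neither group was called. Within animals the left limb exceeded the right by 0.79, 2.23 and 1.62 on the log2 scale after repeated atrophy.

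Slc27a4, a fatty acid transport protein with acyl-CoA synthetase activity and one of the least abundant members, was at 16.9, 10.8 and 15.4 CPM after atrophy, with 5.31 to 12.9 CPM (median 8.56) in control limbs. Atrophy replicate 2 lay inside the control range. It was called higher after atrophy at the edge of the threshold (log2 FC 0.68 ± 0.24, adjusted p = 0.05 by limma), and the call was lost in 17 of 23 alternatives, the block among them (adjusted p = 0.34, 0.022 to 0.68 over the alternatives). Cd36, the main fatty acid translocase of muscle, was at 91.7 to 484 CPM in control limbs and at 98.2, 167 and 82.6 CPM after repeated atrophy and was not called (log2 FC -0.54 ± 0.44, adjusted p = 0.38 by limma). Over 23 alternatives its log2 FC was -0.92 to -0.33 and its adjusted p by limma 0.04 to 0.7, so the lowest met the threshold. With 1 limb left out the adjusted p was 0.27 or more. Lipoprotein lipase, Lpl, was at 102, 445 and 303 CPM after repeated atrophy and at 98.7 to 173 CPM in control limbs and was not called (adjusted p = 0.079 by limma). After recovery all 3 limbs (212, 208 and 180 CPM) lay above the control limbs for Lpl, with a log2 FC of 0.58 ± 0.36 that was not called (adjusted p = 0.33 by limma). The sham left limbs (206, 186 and 288 CPM) also all lay above the control limbs for Lpl, so this separation was not particular to recovery. Fabp4, the adipocyte and endothelial carrier (74.2 to 167 CPM in control limbs, 83.5 to 149 after repeated atrophy), and the transporter Slc27a1 (7.73 to 16 and 7.77 to 11.2 CPM) were not called in any comparison with control.

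Of the 5 long-chain acyl-CoA synthetases 2 were higher and 1 was lower both after atrophy (20.3% of all rows higher and 2.33% lower) and after repeated atrophy (28.1% and 6.24%). These enzymes trap a fatty acid by joining it to coenzyme A. Acsl3 and Acsl4 rose and Acsl6 fell, while Acsl1, the main form of muscle (266 to 419 CPM in control limbs and 245 to 652 CPM after repeated atrophy), and Acsl5 (5.15 to 8.74 and 4.48 to 9.54 CPM) were not called. The 250 bases before the start site of the 3 genes that moved in opposite directions are shown, from RefSeq on the GRCr8 build, which is not the rn7 build of the expression table; capitals mark GC boxes (GGGCGG, read on both strands), of which the 2 in Acsl4 overlap.
Acsl3 (chr9:87563351-87563600, plus strand): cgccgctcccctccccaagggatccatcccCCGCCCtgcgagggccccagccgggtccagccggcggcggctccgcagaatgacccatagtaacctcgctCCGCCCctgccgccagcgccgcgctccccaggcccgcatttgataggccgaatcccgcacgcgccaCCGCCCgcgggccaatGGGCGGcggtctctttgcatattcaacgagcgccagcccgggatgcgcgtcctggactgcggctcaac
Acsl4 (chrX:110803262-110803511, minus strand): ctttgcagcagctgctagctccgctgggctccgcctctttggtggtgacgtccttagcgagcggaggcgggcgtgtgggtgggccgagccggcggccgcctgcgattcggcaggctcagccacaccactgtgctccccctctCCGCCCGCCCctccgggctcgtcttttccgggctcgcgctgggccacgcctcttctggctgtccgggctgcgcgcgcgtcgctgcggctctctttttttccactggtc
Acsl6 (chr10:38951911-38952160, plus strand): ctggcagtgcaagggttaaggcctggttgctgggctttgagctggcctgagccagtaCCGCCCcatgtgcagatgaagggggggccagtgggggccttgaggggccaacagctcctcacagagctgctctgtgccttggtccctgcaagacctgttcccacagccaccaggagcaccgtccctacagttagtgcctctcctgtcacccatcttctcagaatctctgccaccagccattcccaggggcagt
The Acsl3 window held 4 GC boxes, the Acsl4 window 2 and the Acsl6 window 1, with a G+C content of 72.4%, 70.4% and 61.6%. Of the DEGs higher after repeated atrophy, Acsl3 and Acsl4 held a GC box and Fabp3, Cpt1a and Ucp3 did not. Their G+C content ran from 45.6% (Cpt1a) to 72.4% (Acsl3). Of the lower DEGs, Acsl6, Cpt2, Echs1, Hadh and Ehhadh held a GC box, Acadm did not, and Acaa2 has no promoter here. Their G+C content ran from 57.2% (Echs1) to 66.8% (Cpt2). A link of either measure with direction was not tested. A GC box was present in 19 of the 33 member promoters that RefSeq's table holds (57.6%) and in 30.5% of its 33469 promoters of the same length.

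Acsl3 (rn7 chromosome 9, 80140996 to 80164637), an endoplasmic reticulum and lipid droplet enzyme, was at 31.2 to 112 CPM in control limbs, with a median of 43.1 CPM. It was at 202, 86.3 and 112 CPM after atrophy and at 130, 245 and 208 CPM after repeated atrophy. Every repeated atrophy limb lay above every control limb, while the atrophy limbs overlapped with the right limb of atrophy animal 2 at 112 CPM. Its log2 FC reached 1.42 ± 0.32 after atrophy (adjusted p = 0.0088 by limma) and 2.00 ± 0.32 (4.00-fold) after repeated atrophy (adjusted p = 0.00024, 5.6e-05 to 0.0041 over 23 alternatives). Within the atrophy animals the left limb was higher by 1.81 and 1.11 and lower by 0.37 on the log2 scale, and within the repeated atrophy animals it was higher by 1.80, 2.48 and 2.09.

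Acsl4 (rn7 chromosome X, 105942814 to 106006428), which prefers arachidonic acid, behaved in a like way. Control limbs lay at 16.6 to 103 CPM (median 27.3), atrophy limbs at 175, 93.9 and 112 CPM, and repeated atrophy limbs at 121, 198 and 142 CPM, all 3 above the highest control limb. The log2 FC was 1.89 ± 0.46 after atrophy (adjusted p = 0.011 by limma, 0.26 with the block) and 2.19 ± 0.46 (4.55-fold) after repeated atrophy (adjusted p = 0.0017, 0.0067 with the block). After recovery Acsl3 (93.7, 68.1 and 110 CPM) and Acsl4 (41.4, 30.9 and 70.2 CPM) were not called vs. the 9 control limbs on the deposited scale, and when rescaled Acsl3 was called higher (log2 FC 0.91 ± 0.26, adjusted p = 0.031 by limma). Within the recovery animals, however, all 3 left limbs were above their right limbs, by 1.42, 0.94 and 1.78 for Acsl3 and by 1.27, 0.66 and 1.99 for Acsl4 on the log2 scale, and with the block the log2 FC of 1.38 and 1.30 had adjusted p = 0.12 and 0.20 by limma.

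Acsl6 (rn7 chromosome 10, 38451416 to 38498762), a form otherwise best known from brain, was at 29.3 to 141 CPM in control limbs, with a median of 68.7 CPM. It was at 18.1, 53.6 and 13.8 CPM after atrophy, at 115, 128 and 81.5 CPM after recovery and at 24.9, 17.5 and 21.9 CPM after repeated atrophy. Every repeated atrophy limb lay below every control limb, and the recovery limbs sat inside the control range. In log2 FC it was -1.57 ± 0.39 after atrophy (adjusted p = 0.011 by limma, 0.15 with the block) and -1.73 ± 0.39 after repeated atrophy (adjusted p = 0.0025, 0.0050 with the block).

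Per kilobase, Acsl1 made up 56.9% to 67.5% of the 5 synthetases in control limbs and 44.5% to 56.0% after repeated atrophy. The share of Acsl3 was 6.58% to 20.1% in control limbs and 27.8% to 31.7% after repeated atrophy, that of Acsl4 1.99% to 13.2% and 12.2% to 16.6%, and that of Acsl6 7.08% to 32.0% and 2.15% to 6.46%. The limbs of the 2 groups did not overlap for Acsl1, Acsl3 and Acsl6, and these shares do not depend on the scaling of a limb. For Acsl1 and Acsl6 the separation was not particular to repeated atrophy. Without TTX, the Acsl6 share of sham animal 3 was 6.43% (left) and 5.96% (right). The Acsl1 share was 53.5% in sham left replicate 1 and 53.8% in recovery replicate 3. The Acsl3 share of the sham limbs was 9.0% to 16.7% (left) and 9.12% to 13.8% (right).

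**Figure D2:**
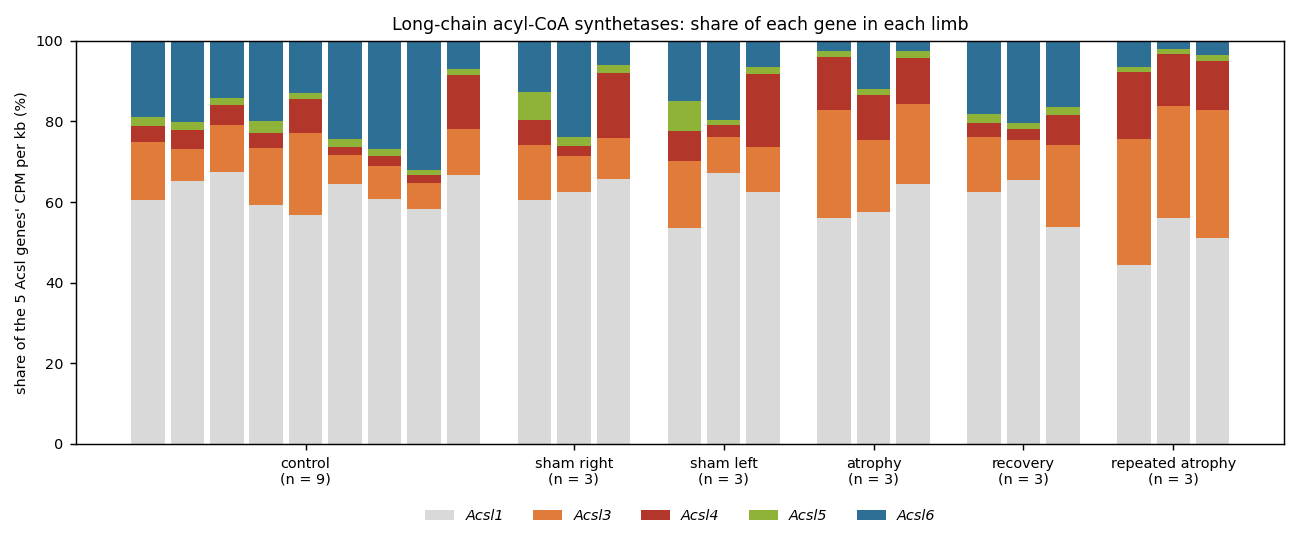
Share (%) of each of the 5 long-chain acyl-CoA synthetase genes in their summed CPM per kb, 1 bar for each of the 24 limbs, by group (n = 9 control limbs, n = 3 in the other groups). Acsl3 takes 27.8% to 31.7% after repeated atrophy and 6.58% to 20.1% in control limbs, and Acsl6 2.15% to 6.46% and 7.08% to 32.0%.

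In the carnitine shuttle, Cpt1a was called higher and Cpt2 lower after repeated atrophy, the call of Cpt2 only in part of the fits. The carnitine palmitoyltransferases Cpt1a (liver form) and Cpt1b (muscle form) make acyl-carnitine at the outer mitochondrial membrane and Cpt2 turns it back inside. Cpt1a (rn7 chromosome 1, 200566888 to 200627060) was at 4.21 to 16.9 CPM in control limbs (median 9.71), at 18.8, 14.9 and 25.3 CPM after atrophy and at 17, 30.3 and 30.7 CPM after repeated atrophy. The log2 FC was 0.98 ± 0.32 after atrophy (adjusted p = 0.035 by limma, 0.33 with the block and 0.13 when rescaled) and 1.35 ± 0.32 after repeated atrophy (adjusted p = 0.0036, 0.0013 to 0.031 over 23 alternatives). It stayed a small part of the CPT1 pair, at 1.06% to 2.72% of the 2 genes per kb in control limbs and 2.62% to 3.76% after repeated atrophy. Cpt1b was at 256 to 632 CPM in control limbs and at 412, 529 and 514 CPM after repeated atrophy. Its log2 FC of 0.51 ± 0.22 was not called vs. the pooled control limbs (adjusted p = 0.083 by limma), and 0.62 ± 0.15 within animals was (adjusted p = 0.013), but with both the block and the rescaling the log2 FC was 0.24 (adjusted p = 0.22).

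Cpt2 was at 60.5, 70.9 and 83.7 CPM after repeated atrophy and at 79.2 to 114 CPM in control limbs (log2 FC -0.43 ± 0.16, adjusted p = 0.045 by limma), and the call was lost in 9 of 23 alternatives, with an adjusted p of 0.16 in the block and of 0.21 at most. Within the repeated atrophy animals the left limb was lower by 0.76 and 0.46 and higher by 0.08 on the log2 scale. Mlycd, the malonyl-CoA decarboxylase that relieves the block on CPT1, was at 57.6, 67.0 and 65.6 CPM after repeated atrophy and at 64.8 to 223 CPM in control limbs. It was not called vs. pooled control (log2 FC -0.67 ± 0.34, adjusted p = 0.14 by limma) but was within animals (-0.71 ± 0.17, adjusted p = 0.015), with the left limb lower in 3 of 3 animals. Acacb, which makes the malonyl-CoA (85.1 to 253 CPM in control limbs and 82.1 to 362 CPM after repeated atrophy), and Crat, the carnitine acetyltransferase (630 to 948 and 770 to 843 CPM), were not called vs. control in any group.

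Of the 10 genes of mitochondrial beta-oxidation, 4 were lower and 0 higher after repeated atrophy by limma, where 6.24% of all rows were lower and 28.1% higher. After atrophy 1 was lower (2.33% of all rows), and after recovery 0 of 10 were called. When rescaled, 7 were lower after repeated atrophy (12.1% of all rows) and 4 after atrophy (4.95%). Hadh, the short-chain 3-hydroxyacyl-CoA dehydrogenase (rn7 chromosome 2, 219787935 to 219830336), was at 86.0 to 208 CPM in control limbs with a median of 149 CPM. It was at 46.9, 125 and 53.0 CPM after atrophy, at 281, 260 and 134 CPM after recovery and at 40.9, 42.2 and 42.3 CPM after repeated atrophy. The 3 repeated atrophy limbs were closer to each other than those of any other group and lay below every control limb, whereas atrophy replicate 2 lay inside the control range. Its log2 FC came to -1.16 ± 0.29 after atrophy (adjusted p = 0.013 by limma, 0.18 with the block) and -1.84 ± 0.29 (3.58-fold lower) after repeated atrophy (adjusted p = 0.00025, 7.9e-05 to 0.0044 over 23 alternatives). Within animals the left limb was lower by 2.10, 1.60 and 1.44 on the log2 scale after repeated atrophy.

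Acadm, the medium-chain acyl-CoA dehydrogenase (rn7 chromosome 2, 242858865 to 242883037), was at 604 to 1032 CPM in control limbs (median 772) and at 424, 476 and 338 CPM after repeated atrophy, with no overlap. Its log2 FC was -0.91 ± 0.20 (adjusted p = 0.0023 by limma, 0.015 with the block). Acaa2, the mitochondrial thiolase (rn7 chromosome 18, 68345136 to 68373247), was at 197 to 281 CPM in control limbs (median 227) and at 157, 109 and 102 CPM after repeated atrophy, again with no overlap (log2 FC -0.96 ± 0.24, adjusted p = 0.0047 by limma, 0.013 with the block). Echs1, the short-chain enoyl-CoA hydratase, was at 116, 113 and 119 CPM after repeated atrophy and at 142 to 202 CPM in control limbs. Its log2 FC was -0.51 ± 0.15 (adjusted p = 0.014 by limma, 0.030 with the block). Without repeated atrophy replicate 2 the log2 FC was -0.49 and the call was lost (adjusted p = 0.065 by limma, 0.0030 to 0.065 over the alternatives).

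Neither gene of the trifunctional protein, which acts on long chains, was called. Hadha, which carries the long-chain hydratase and 3-hydroxyacyl-CoA dehydrogenase, was at 402 to 569 CPM in control limbs and at 469, 487 and 492 CPM after repeated atrophy (log2 FC 0.07 ± 0.14, adjusted p = 0.77 by limma, -0.31 when rescaled). Hadhb, its thiolase subunit, was at 501 to 1067 CPM in control limbs and at 797, 892 and 612 CPM after repeated atrophy. Per kilobase, the ratio of Hadh to Hadha was 0.288 to 0.697 in control limbs, 0.446 to 0.635 after recovery, 0.196, 0.411 and 0.174 after atrophy, and 0.130 to 0.132 after repeated atrophy, where every limb lay below every control limb. Both limbs of sham animal 3, without TTX, also lay below every control limb for this ratio (0.22 left and 0.225 right). The ratio of Hadhb to Hadha was 1.48 to 2.95 in control limbs and 1.56 to 2.30 after repeated atrophy. The 2 genes lie head to head, and the upstream windows of both overlap by 200 bases. The shared stretch is shown on the plus strand, on which Hadha is read, with its GC box in capitals.
Hadha and Hadhb (GRCr8 chr6:31907551-31907750, plus strand): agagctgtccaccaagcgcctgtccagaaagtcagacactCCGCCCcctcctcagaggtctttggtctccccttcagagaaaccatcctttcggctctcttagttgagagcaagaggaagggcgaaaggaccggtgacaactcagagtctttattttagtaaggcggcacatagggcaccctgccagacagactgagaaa

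The other beta-oxidation genes were not called vs. pooled control. Acadl, the long-chain acyl-CoA dehydrogenase, was at 829, 1034 and 653 CPM after repeated atrophy and at 351 to 934 CPM in control limbs; its log2 FC of 0.66 ± 0.29 was not called (adjusted p = 0.081 by limma), while 0.73 ± 0.22 within animals was (adjusted p = 0.031), and with the rescaling added it was 0.35 (adjusted p = 0.22). So among the 4 acyl-CoA dehydrogenases Acadm was lower under each scale, whereas Acadvl (very long chains) and Acads (short chains) were called lower only when rescaled (log2 FC -0.70 and -0.68, adjusted p = 0.016 and 0.025 by limma). On the deposited scale their log2 FC were -0.32 and -0.31 (adjusted p = 0.11 and 0.21 by limma). In CPM Acadvl was at 234 to 351 in control limbs and 222 to 229 after repeated atrophy, and Acads at 54 to 98.6 and 49.9 to 70.7. Hsd17b10, a dehydrogenase for short branched chains (89.3 to 120 and 81 to 95 CPM), had a rescaled log2 FC of -0.55 (adjusted p = 0.014 by limma).

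**Figure D3:**
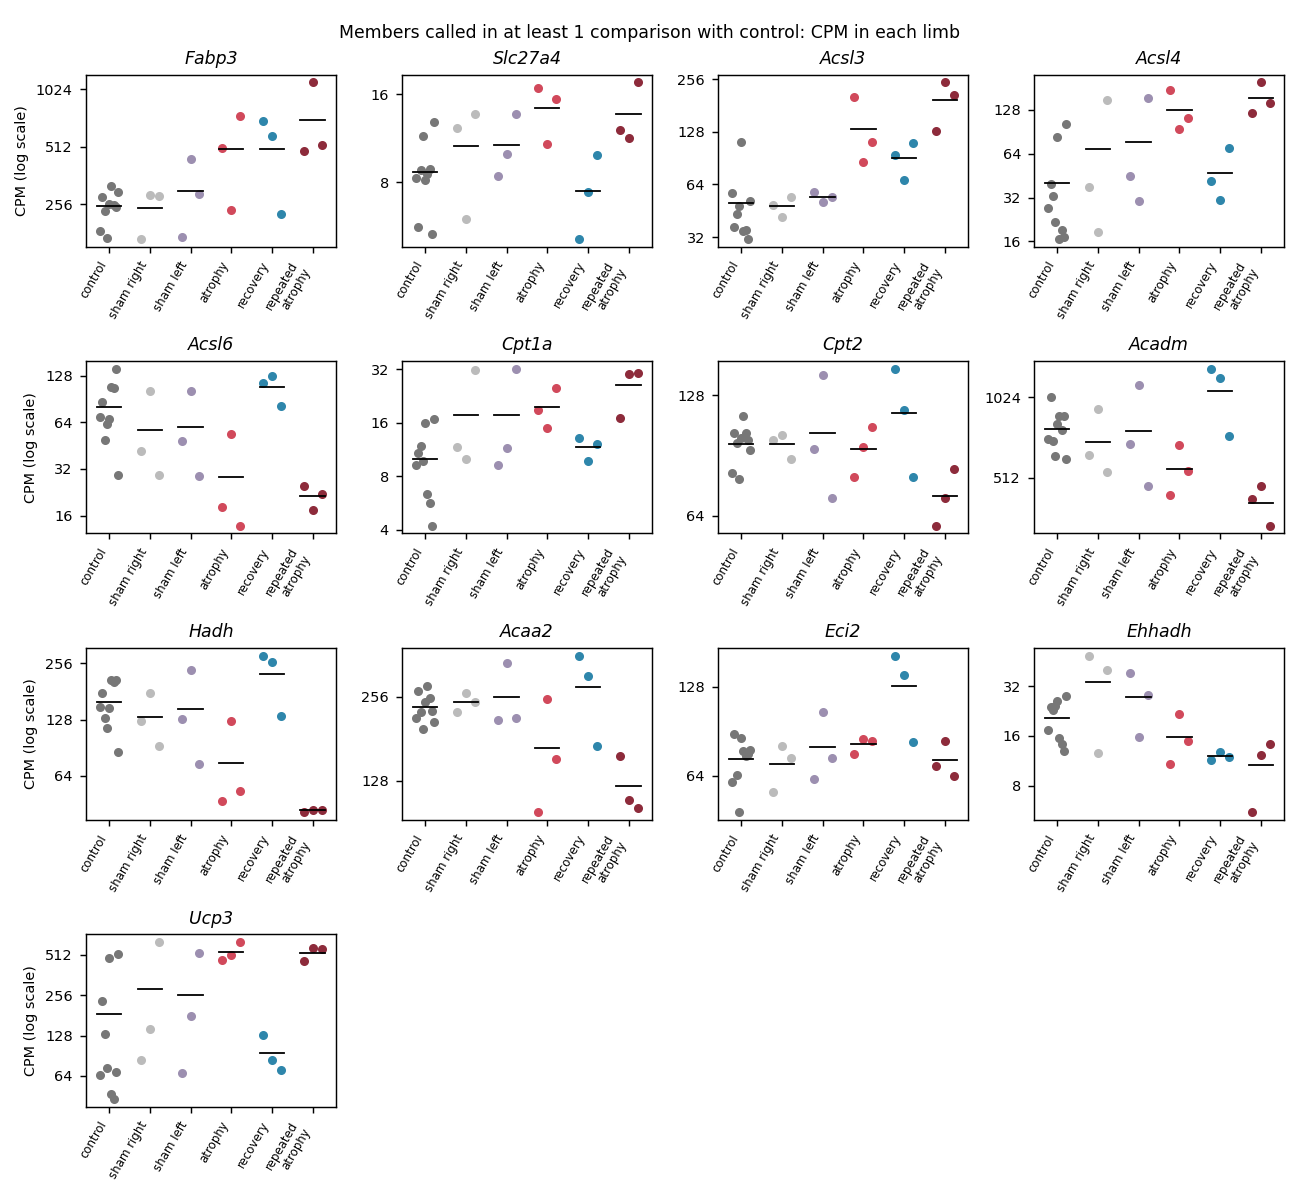
CPM (log scale) in each limb of 13 members that were DEGs in at least 1 comparison with control, up to 3 per role; points are limbs (n = 9 control, n = 3 in the other groups) and bars are group means. Hadh lies at 40.9 to 42.3 CPM after repeated atrophy, below all 9 control limbs, whereas for Ucp3 2 of the control limbs reach 481 and 518 CPM, as high as treated limbs.

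Among the auxiliary enzymes, which prepare double bonds for beta-oxidation, Eci2 was the 1 gene called after recovery. It was at 163, 140 and 82.9 CPM after recovery and at 48.1 to 88.7 CPM in control limbs, so the third limb lay inside the control range. Its log2 FC was 0.78 ± 0.19 (adjusted p = 0.019 by limma), and 0.7 with the block (adjusted p = 0.16). The call was also lost without recovery replicate 1 (log2 FC 0.58, adjusted p = 0.16 by limma) or 2 (0.69, 0.097). Over all 23 alternatives the adjusted p was 0.0097 to 0.18. Eci1 (59 to 91.2 CPM in control limbs and 72.5 to 83.8 CPM after repeated atrophy) and Decr1 (57.8 to 128 and 80.8 to 126 CPM) were not called, nor were the electron transfer genes Etfa, Etfb and Etfdh on the deposited scale. Of these, Etfb was lower after repeated atrophy when rescaled (log2 FC -0.66, adjusted p = 0.023 by limma), at 112 to 172 CPM in control limbs and 120 to 126 CPM after repeated atrophy. Etfa was at 207 to 397 and 271 to 394 CPM and Etfdh at 121 to 214 and 145 to 206 CPM in the same groups.

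Ehhadh, the peroxisomal bifunctional enzyme and a well-known PPAR alpha target (rn7 chromosome 11, 79241927 to 79275174), was at 12.9 to 27.9 CPM in control limbs with a median of 22.9 CPM. It was at 5.53, 12.2 and 14.3 CPM after repeated atrophy (log2 FC -0.93 ± 0.27, adjusted p = 0.013 by limma, 0.0083 with the block). Replicate 3 of the group lay inside the control range. Without replicate 1, the limb at 5.53 CPM, the log2 FC was -0.56 and the adjusted p by limma 0.13 (0.00096 to 0.13 over 23 alternatives). After recovery it was at 11.5, 12.8 and 12.0 CPM, below every control limb, with a log2 FC of -0.67 ± 0.27 that was not called (adjusted p = 0.13 by limma). The peroxisomal thiolase Acaa1a (13 to 22.9 CPM in control limbs and 16.1 to 20.6 CPM after repeated atrophy) was not called in any comparison with control, and, like Acot2, it has a close paralog, so that its level depends on how shared reads were counted.

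Ucp3, the muscle mitochondrial carrier named an uncoupling protein and a marker of high fatty acid supply (rn7 chromosome 1, 154815777 to 154828765), was at 468, 505 and 633 CPM after atrophy, at 130, 84.0 and 70.8 CPM after recovery and at 458, 574 and 560 CPM after repeated atrophy. The control limbs spread from 43.2 to 518 CPM with a median of 73.2 CPM. The right limbs of atrophy animals 2 and 3, at 481 and 518 CPM, were as high as treated limbs, and the right limb of atrophy animal 1 was at 64.8 CPM. The log2 FC was 2.14 ± 0.62 after atrophy (adjusted p = 0.022 by limma, 0.28 with the block and 0.065 when rescaled) and 2.13 ± 0.62 after repeated atrophy (adjusted p = 0.013, 0.017 with the block, 0.058 without repeated atrophy replicate 2, the only loss among 23 alternatives with 0.0023 to 0.058). Within the atrophy animals the left limb was higher by 2.83, 0.07 and 0.29, and within the repeated atrophy animals by 0.99, 2.12 and 2.92. Its neighbour Ucp2 and the thioesterases Acot2 and Acot13, which release the fatty acid again, were not called vs. control on the deposited scale. In control limbs and after repeated atrophy Ucp2 was at 9.99 to 24.8 and 14 to 17.3 CPM, Acot2 at 23.8 to 46.4 and 26.4 to 42.7 CPM and Acot13 at 52.8 to 88.9 and 43.4 to 66.5 CPM. The Ucp3 window carried 2 copies of the nuclear receptor half-site AGGTCA, shown in capitals.
Ucp3 (GRCr8 chr1:164227660-164227909, plus strand): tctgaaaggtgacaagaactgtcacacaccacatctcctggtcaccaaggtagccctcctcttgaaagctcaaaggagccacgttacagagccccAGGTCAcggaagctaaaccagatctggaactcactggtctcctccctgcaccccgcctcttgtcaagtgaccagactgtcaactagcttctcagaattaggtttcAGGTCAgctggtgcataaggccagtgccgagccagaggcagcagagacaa
The half-site (both strands) was found in 6 of 33 member promoters (18.2%: Ucp3, Echs1, Eci1, Acadvl, Acacb and Slc27a1) and in 14.1% of all 33469. Longer forms that contain it, the direct repeat with a 1-base gap (DR1) and TCAAGGTCA, were found in 0 of 33 and in 0.0508% and 0.388% of all.

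**Figure D4:**
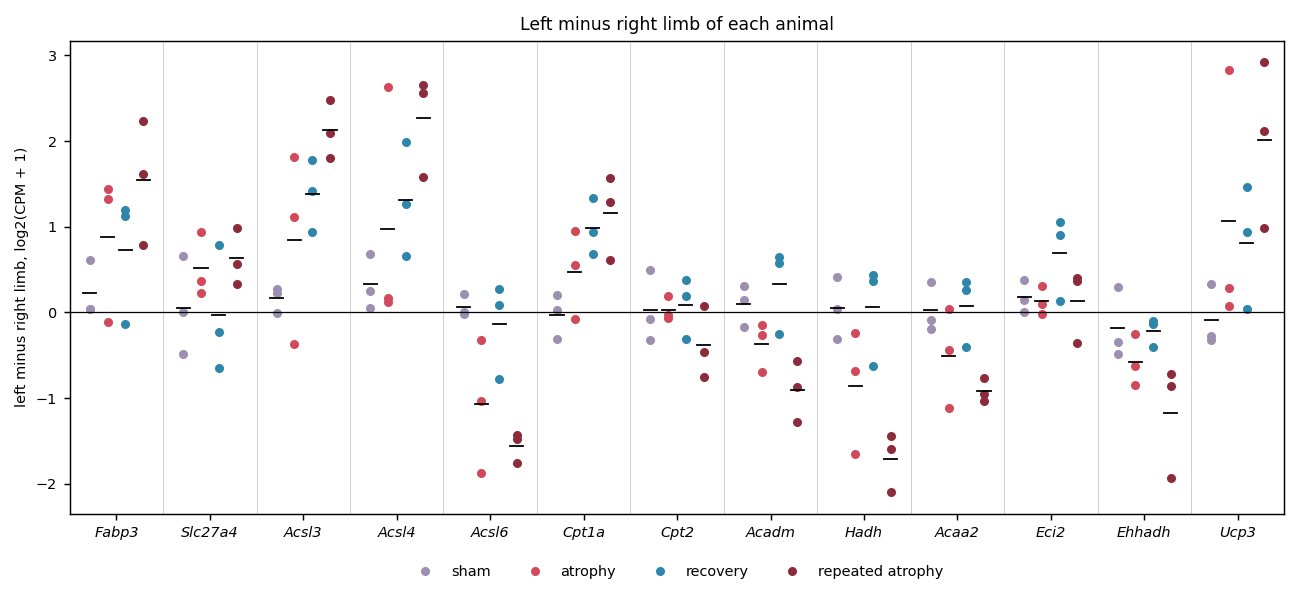
Left minus right limb of each animal on the log2(CPM + 1) scale for the same 13 genes; points are animals (n = 3 per group), bars are means, and sham animals had surgery without TTX. For Hadh the 3 repeated atrophy animals lie between -2.10 and -1.44, and for Ucp3 the 3 atrophy animals lie at 2.83, 0.07 and 0.29.

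Comparing treated groups, recovery vs. atrophy had 7 DEGs. Acsl6, Acadvl, Acadm and Hadh were higher (10.3% of members, 3.34% of all rows) and Slc27a4, Crat and Ucp3 were lower (7.69%, 14.5% of all rows). When rescaled, 6 were higher and 0 lower (5.49% and 5.2% of all rows), and Slc27a4, Crat and Ucp3 were no longer called. Repeated atrophy vs. recovery had 11 DEGs, with Acsl3, Acsl4 and Ucp3 higher (7.69% of members, 21% of all rows) and Acsl6, Cpt2, Acadvl, Acadm, Hadh, Acaa2, Eci2 and Acot13 lower (20.5%, 6.29% of all rows). When rescaled, 13 were lower and 1, Ucp3, was higher (11.1% and 10.5% of all rows). On the deposited scale Hadh had a log2 FC of -2.33 ± 0.36 in repeated atrophy vs. recovery (adjusted p = 0.00085 by limma) and Ucp3 one of 2.51 ± 0.76 (adjusted p = 0.021), and rescaled the values were -2.68 (adjusted p = 0.0012) and 2.15 (adjusted p = 0.042). With the block, which compares differences between the limbs of each animal, 0 members were called in either comparison (0.0143% and 0.0855% of all rows called). At an unadjusted p under 0.05 there were 3 members and 1117 rows for recovery vs. atrophy, and 9 members and 2760 rows for repeated atrophy vs. recovery. The block log2 FC of Ucp3 was -0.25 ± 0.72 for recovery vs. atrophy (adjusted p = 0.96 by limma), against -2.52 without the block, and 1.19 ± 0.72 for repeated atrophy vs. recovery (adjusted p = 0.38), against 2.51. For Hadh the block values were 0.92 ± 0.39 (adjusted p = 0.62 by limma), against 1.64, and -1.77 ± 0.39 (adjusted p = 0.093), against -2.33. Repeated atrophy vs. atrophy gave 0 member DEGs by limma and 0 with the block (0.0356% and 0.0% of all rows called). At an unadjusted p under 0.05 there were 0 members and 884 rows without the block, and 1 member and 790 rows with it.

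Limbs that did not overlap with the 9 control limbs were found for 0 of 39 genes after atrophy (5.27% of all rows), 3 after recovery (Lpl, Acsl5 and Ehhadh, none of them a DEG, 10.4% of all rows) and 10 after repeated atrophy (20.4% of all rows). The last were Fabp3, Acsl3, Acsl4, Acsl6, Cpt1a, Acadvl, Acadm, Echs1, Hadh and Acaa2, and 9 of the 10 were DEGs. The right limbs of atrophy animals 2 and 3 were the highest of the control limbs for Ucp3 (481 and 518 CPM), Acsl4 (83.5 and 103 CPM), Cd36 (303 and 484 CPM) and Acadl (934 and 859 CPM) and, in animal 3, the lowest for Hadh (86.0 CPM) and Acsl6 (29.3 CPM).

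Sham left vs. control gave 0 member DEGs by limma (4 at an unadjusted p under 0.05, 0.0% of all rows called, 1904 rows at an unadjusted p under 0.05). Sham animal 3, from the repeated atrophy time point, was high in both limbs for Ucp3 (527 CPM left, 633 CPM right), Acsl4 (154 and 149 CPM), Cpt1a (32.2 and 31.6 CPM) and Cd36 (905 and 706 CPM) and low for Hadh (74.3 and 92.1 CPM) and Acsl6 (28.8 and 29.2 CPM). Its levels of Ucp3, Acsl4 and Cpt1a were within or above the range of the repeated atrophy limbs, without TTX. Within the 3 sham animals the left limb differed from the right by -0.32 to 0.33 for Ucp3, by -0.31 to 0.41 for Hadh, by 0.05 to 0.68 for Acsl4 and by -0.02 to 0.21 for Acsl6 on the log2 scale. The part of the animal in each pooled comparison was not tested beyond the block.

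Of the 22 regulators of fatty acid oxidation, 9 were lower and 2 higher after repeated atrophy by limma, where 6.24% of all rows were lower and 28.1% higher. This list, like the others below, was chosen with earlier results of these data known, so its counts are a description and no independent test. The largest fall was in Perm1, a muscle partner of PGC-1 and ERR, from 65.9 to 335 CPM in control limbs to 4.47, 7.06 and 9.76 CPM (log2 FC -4.59 ± 0.46, adjusted p = 1.2e-05, 0.0023 with the block). The others that fell were Ppargc1a, Esrra, Ppard, Rxra, Rxrg, Lpin1, Prkaa2 and Prkab1, with log2 FC from -1.56 (Rxrg) to -0.35 (Prkab1), and with the block Ppargc1a (adjusted p = 0.068) and Prkab1 (0.19) were not called while Klf15 was. The AMP-activated protein kinase subunits split: the catalytic Prkaa1 rose (log2 FC 1.43 ± 0.27, adjusted p = 0.00085 by limma) with the regulatory Prkag3 (1.86 ± 0.39, adjusted p = 0.0017), and the other catalytic subunit, Prkaa2, fell (-0.99 ± 0.22, adjusted p = 0.0024). After recovery Ppard, Rxra and Rxrb were lower and 0 of 22 higher (3.33% and 4.4% of all rows). After atrophy Rxrg, Esrra and Perm1 were lower and Prkaa1 higher (2.33% and 20.3% of all rows). With the block 0 of 22 were called by limma in either comparison (0.0% of all rows after atrophy and 0.0641% after recovery).

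Of 41 further fatty acid genes in the table, 6 were lower and 10 higher after repeated atrophy by limma, where 6.24% of all rows were lower and 28.1% higher, so that the higher genes were no more frequent than over all rows. Fabp5, the epidermal form of the carrier, rose most, from 5.39 to 15 CPM in control limbs to 80.5 to 127 CPM (log2 FC 3.27 ± 0.44, adjusted p = 8.8e-05, 0.0051 with the block), with the thioesterase Acot9 (2.41 ± 0.34, adjusted p = 0.00011). Acss1, which activates acetate in the mitochondrion, fell most, from 41.1 to 73.1 CPM to 5.02 to 6.18 CPM (log2 FC -3.05 ± 0.32, adjusted p = 1.9e-05, 0.0023 with the block). Of 9 mitochondrial genes outside fatty acid oxidation, 6 were lower after repeated atrophy (6.24% of all rows), among them Idh3a (log2 FC -0.93 ± 0.18, adjusted p = 0.0010 by limma) and Sdha (-0.89 ± 0.20, adjusted p = 0.0026), and their median log2 FC of -0.71 was below that of the 10 beta-oxidation genes, -0.31, and of all rows, 0.20.

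Markers of muscle fibres and of other cells were measured beside these results. The 6 muscle fibre markers summed to 56239 to 101607 CPM in control limbs (mean 82951), 48294 to 63812 CPM after atrophy (mean 56411), 75552 to 84183 CPM after recovery (mean 80748) and 57651 to 69011 CPM after repeated atrophy (mean 63258). The right limbs of atrophy animals 2 and 3, which were high for Ucp3, had the lowest sums of the control limbs (56239 and 60284 CPM), and sham animal 3 had 42273 CPM in the left and 44011 CPM in the right limb. The genes of this list did not move together, so the sum is no measure of fibre content. From control to repeated atrophy the mean went from 37744 to 21303 CPM for Acta1 and from 28552 to 15624 CPM for Ckm, but from 7679 to 15742 CPM for Mb, from 5259 to 6130 CPM for Des and from 3448 to 4212 CPM for Tnnt3. The part of these differences in the levels of the members was not tested. After repeated atrophy 2 of 34 markers were called by limma, Mb higher and the endothelial Tie1 lower (28.1% of all rows were higher and 6.24% lower), and with the block Mb was called (adjusted p = 0.042) and Tie1 was not (0.058). The summed endothelial markers were at 230 to 330 CPM against 288 to 385 CPM in control limbs. The 7 adipocyte markers summed to 7.23 to 17 CPM after repeated atrophy and to 5.06 to 27.8 CPM in control limbs, with Adipoq at 0.209 to 3.05 CPM after repeated atrophy and 1.56 to 7.26 CPM in control limbs. After recovery the macrophage markers Adgre1, Cd68 and Mrc1 and the fibroblast markers Dcn, Col1a1 and Lum were higher and the endothelial Cldn5 and Esam lower by limma (6 and 2 of 34, where 4.4% of all rows were higher and 3.33% lower). With the block 0 of the 34 were called (0.0641% of all rows), with adjusted p from 0.11 to 0.31 for these 8. Fibroblast markers summed to 589 to 979 CPM after recovery against 150 to 368 CPM in control limbs. Macrophage markers summed to 98.1 to 204 CPM after recovery and 139, 63.9 and 135 CPM after atrophy against 35.3 to 132 CPM. Endothelial markers summed to 272, 270 and 268 CPM after recovery, below every control limb. This list did not move together either, so its sum is no measure of endothelial content. From control to recovery the mean went from 25.3 to 32.2 CPM for Kdr and from 13.9 to 15.4 CPM for Emcn. The means of the other endothelial markers were lower after recovery. The part of these cells in the levels of Eci2, Lpl, Fabp4 or Ehhadh was not tested.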

How the data were processed

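RNA was sequenced from the tibialis anterior of both limbs of 12 rats as stranded poly(A) libraries. Per the labels and methods, the authors removed contaminant reads with Bowtie2 2.2.5, aligned reads to rn7 with STAR and used Partek; the annotation and counting step are not given in the sources used here. A median of ratios scaling is named in the methods, but the values the authors deposited are CPM (every column has the same total, as CPM do), so a count test was not used. Low values were whole reads for 82.2% to 84.8% (within 0.01 of a whole number), so reads were not recovered. The table has 24 sample columns; 3 further columns matched no sample and were not used. Dropping 28 duplicates of 14271 rows left 14243.

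Group means of log2(CPM + 1) were compared in limma 3.58.1, run in R 4.3.3 and with a variance trend, 4 groups in 1 fit of 18 limbs without an animal term (14031 rows above 0 in at least 3 limbs), and sham left vs. control separately (13822 rows). The animal block uses the pairing of limbs in the labels: the 2 limbs of an animal deviated together with r of -0.51 to 0.60 in TTX animals and 0.68 to 0.90 in sham animals. The limbs of a group came from separate animals. Fits with both block and rescaling were added after seeing the data. The fit was tested on simulated data. Members and lists were chosen with earlier results of these data known. Every member is described by role; per-limb values are given for up to 3 DEGs vs. control per role with the largest log2 FC, and Echs1, Cpt1b, Mlycd, Acadl, Hadha, Hadhb, Cd36 and Lpl were added after their values were seen. Non-members come from fixed lists. Alternatives were pseudocounts of 0.1 and 10, 2 rescalings, a mean of at least 10 CPM or no filter, 12 right limbs as control, the block, no trend and leaving out each limb. Promoters are RefSeq's (GRCr8) for 33 of 39 members. Python 3.11.15 and pandas 2.3.3 were used.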

Additional observations from a re-analysis of the deposited data

Results flagged for a closer look

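In the 9 control limbs, 3 of the 39 genes had an extreme limb whose gap to the next, divided by the range, exceeded Dixon's critical value for 9 samples on the log2(CPM + 1) scale, where chance flags about 1 in 20. For Acsl3 the ratio was 0.533, set by the right limb of atrophy animal 2 at 112 CPM. For Cpt1b it was 0.593, set by the right limb of atrophy animal 3 at 632 CPM. For Etfb it was 0.497, set by the right limb of atrophy animal 3 at 112 CPM.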

How the results depend on the processing

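No called member changed direction under any alternative: 298 values under other alternatives and 265 with 1 limb left out stayed called, and 102 and 83 lost the call. Of the 12 DEGs after repeated atrophy, 7 (Acaa2, Acadm, Acsl3, Acsl4, Acsl6, Cpt1a and Hadh) stayed called under all 23 alternatives. With the animal as a replicate block 0 members were called for atrophy vs. control, recovery vs. control, recovery vs. atrophy and repeated atrophy vs. recovery, and 14 for repeated atrophy vs. control; fits with both the block and either rescaling, chosen after seeing the data, also gave 0 in these 4. The filter on a mean of at least 10 gave 11 for atrophy vs. control; both rescalings and limma without the trend gave 2 for recovery vs. control. Leaving out 1 limb gave 0 to 12 members for atrophy vs. control (0 without atrophy replicate 1 or 3, 12 without 2), 0 to 4 for recovery vs. control, 8 to 15 for repeated atrophy vs. control, 0 to 10 for recovery vs. atrophy (0 without atrophy replicate 3), 5 to 12 for repeated atrophy vs. recovery, 0 to 0 for repeated atrophy vs. atrophy and 0 to 1 for sham left vs. control (1 without sham left replicate 2); the causes were not tested. The uncalled log2 FC of Hadha after repeated atrophy turned to -0.31 and -0.32 with the rescalings and to -0.36 and -0.37 with the block added. The 3 limbs per group limit the precision, and 1 read is worth at most 0.053 CPM.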
